A study of Homo sapiens with 4 samples.

Results

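The zinc finger (ZNF) genes of chromosome 19 were examined in H1299 cells, a human lung carcinoma line, after treatment with ginseng nanoparticles. The members were the protein-coding genes whose symbol is ZNF followed by a number, with or without a final letter, and which lie on chromosome 19 in GRCh38. Among the 61541 gene rows counted, 247 met this description, and the 223 with a mean of at least 1 CPM (the counts of a gene scaled to a fixed library size) over the 4 libraries were used. All 223 also passed the low-count filter of the test. The comparison was of 2 libraries from cells given phosphate-buffered saline (PBS) with 2 from cells given nanoparticles made from ginseng, all from polyadenylated RNA. The labels give no dose, exposure time or plant part. The word control also stands in the titles of the nanoparticle samples, whose groups were taken from the treatment label. Nothing in the labels says that replicates came from separate cultures, so the p-values reflect only how far these 4 libraries vary, possibly for technical reasons.

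Counts on genes were between 22252686 and 24979081 per library. The epithelial keratin KRT18 averaged 1026 CPM with PBS and 921 CPM with nanoparticles (log2 -0.16, edgeR adjusted p = 0.000526). The keratin KRT8 (log2 -0.11, edgeR adjusted p = 0.024) and the mesenchymal filament gene VIM (log2 -0.092, edgeR adjusted p = 0.0137) were also abundant and fell, and their relation to the ZNF genes was not tested. The epithelial genes EPCAM and CDH1 had at most 8 counts in any library and the alveolar gene SFTPC had none, so the lung and epithelial markers were only partly present. PTPRC, a marker of blood cells, had no count. The other 7 markers of blood, endothelial and stromal cells had between 0 and 21 counts in any library, the highest being COL1A1 (15 and 16 with PBS, 21 and 21 with nanoparticles) and DCN (7 to 11).

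Most ZNF genes of chromosome 19 encode DNA-binding proteins built from tandem C2H2 zinc fingers, in which 2 cysteines and 2 histidines hold a zinc ion. Many also carry a KRAB domain near the amino terminus, which recruits the corepressor TRIM28 (KAP1) and through it the histone H3K9 methyltransferase SETDB1 and HP1 proteins. These genes arose by tandem duplication, lie in clusters, and are best known for silencing transposable elements. In the principal transcripts of GENCODE 29, a profile search found a KRAB A box in 190 of the 223 members and none in 33. The members had a median of 12 finger motifs per protein, from 0 to 32, and a median transcript of 3643 bases with a GC content of 42.2%, against 2856.5 bases and 48.7% for all tested genes.

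The repeat that defines the family is shown by the DNA of finger-coding segments, each 84 bases from the first cysteine codon through the linker to the next finger. The codons of the paired cysteines and histidines are in capitals. The first pair of lines was chosen to show how alike duplicated members can be, the next lines come from members with large differences in either direction, and the last from a member of high GC content without a KRAB A box. Outside the first pair, each line is the most amino-terminal segment of its protein that met the pattern.
ZNF417: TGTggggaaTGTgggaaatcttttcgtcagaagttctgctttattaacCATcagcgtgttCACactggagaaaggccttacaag
ZNF587: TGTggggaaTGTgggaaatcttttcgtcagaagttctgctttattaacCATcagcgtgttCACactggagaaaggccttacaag
ZNF681: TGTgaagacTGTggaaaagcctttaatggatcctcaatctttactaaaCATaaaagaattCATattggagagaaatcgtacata
ZNF253: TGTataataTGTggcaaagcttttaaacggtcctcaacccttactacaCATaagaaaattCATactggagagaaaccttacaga
ZNF85: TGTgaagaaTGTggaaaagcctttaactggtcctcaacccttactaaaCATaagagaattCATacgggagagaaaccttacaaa
ZNF787: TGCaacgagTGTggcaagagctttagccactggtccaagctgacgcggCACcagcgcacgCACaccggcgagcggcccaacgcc
All of these segments lie in the last exon of the principal transcript, within the coding sequence, in GRCh38 coordinates of GENCODE 29. They are at chr19:57909135-57909218 on the minus strand for ZNF417, chr19:57859472-57859555 on the plus strand for ZNF587, chr19:23744869-23744952 on the minus strand for ZNF681, chr19:19891767-19891850 on the plus strand for ZNF253, chr19:20949124-20949207 on the plus strand for ZNF85 and chr19:56088887-56088970 on the minus strand for ZNF787. Their GC content ran from 32.1% in ZNF681 to 66.7% in ZNF787, and the median of 2090 such segments over 216 members was 41.7%.

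No chromosome 19 ZNF gene passed the test between nanoparticle and PBS libraries. By edgeR's quasi-likelihood test with Benjamini-Hochberg adjustment over all tested genes, 0 of 223 members had an adjusted p under 0.05 (smallest 0.0902), neither higher nor lower. This stands against 2.58% of all 15778 tested genes (1.75% higher and 0.83% lower). Of the 6658 tested genes between the 5th and 95th percentiles of member CPM (2.30 to 41.3 CPM), 1.61% passed. The members themselves ran from 1.07 to 221 CPM. DESeq2 and limma-voom also called none of the members, where over all genes they called 90 and 424. With so few calls by DESeq2, its count of 0 says little about the members. At an unadjusted p under 0.05, 19 members were higher and 6 lower, where the shares over all tested genes were 9.18% and 7.61%. The 95% interval of the difference lay within a 1.5-fold change in either direction for 206 members, within 1.2-fold for 83 and within 1.1-fold for 6. Between 2.30 and 41.3 CPM, the smallest absolute log2 fold change that passed for any gene was 0.21, while 123 of all 223 members were within 0.1 of 0.

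The median log2 fold change of the members was 0.047, with quartiles of -0.015 and 0.11, and 160 of 223 (71.7%) were above 0 against 50.2% of all tested genes, whose median was 0.00056. Both nanoparticle libraries lay above both PBS libraries for 66 members (29.6%, against 23.7% of all tested genes) and below both for 27 (12.1%, against 23.2%). In summed level the members took 3169 and 3114.5 CPM in PBS replicates 1 and 2 and 3192 and 3257 CPM in nanoparticle replicates 1 and 2. The groups did not overlap in this sum. The gap from the higher PBS to the lower nanoparticle library was smaller than the gap between the libraries of either group.

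Library by library, the median member was lower in PBS replicate 2 than in PBS replicate 1 by a log2 difference of -0.039, and higher in nanoparticle replicate 2 than in replicate 1 by 0.037. Between groups, the median log2 difference ran from 0.021 for nanoparticle replicate 1 over PBS replicate 1 to 0.075 for nanoparticle replicate 2 over PBS replicate 2. The differences between replicates of a group were thus of the size of the median shift between groups. Over 13848 genes above 1 CPM the same medians were all within 0.004 of 0. The fraction of reads aligned to several places, which were not given to any gene, was 3.51% in nanoparticle replicate 2 and between 4.51% and 4.75% in the other libraries. Its part in the members' counts was not tested.

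**Figure D1:**
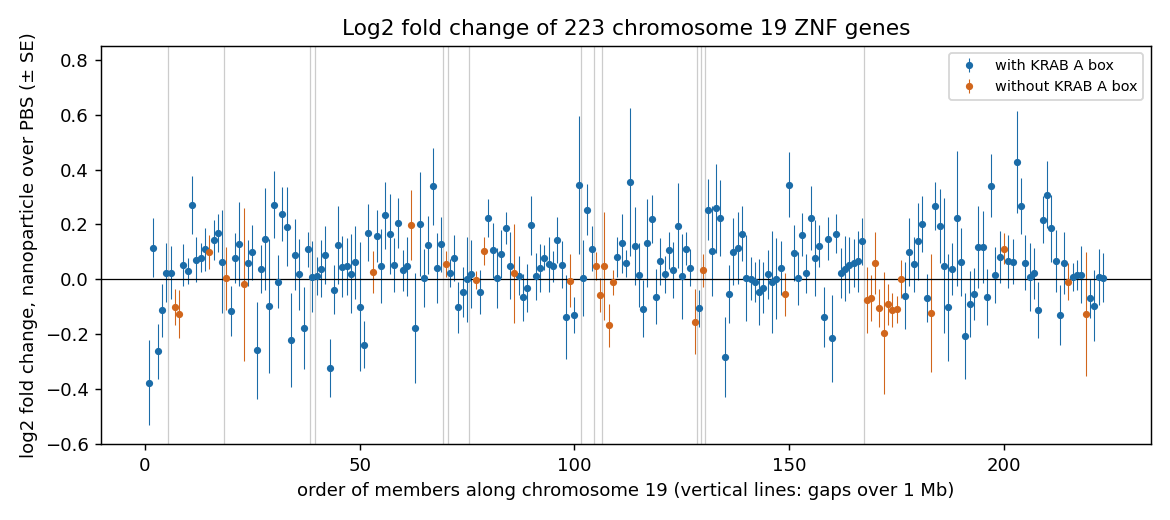
Log2 fold change of nanoparticle over PBS (vertical axis, ± SE) for the 223 members in their order along chromosome 19 (horizontal axis, rank). Blue points carry a KRAB A box and orange points do not, and vertical lines mark gaps of more than 1 Mb. Of the points, 160 lie above 0, and all lie between -0.38 and 0.43.

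Members with a KRAB A box lay slightly above 0. Their median log2 fold change was 0.053 and 147 of 190 were above 0, with the groups apart for 62 higher (32.6%, against 23.7% of all tested genes) and 19 lower members (10%, against 23.2%). The 33 members without the box had a median of -0.011, 13 were above 0, and the groups were apart for 4 higher (12.1%) and 8 lower (24.2%). The 231 ZNF genes of other chromosomes with at least 1 CPM had a median of 0.025 (0.032 for the 111 with a KRAB A box and 0.018 for the 120 without), with 1 higher and 0 lower past the threshold. The 705 other protein-coding genes of chromosome 19 had a median of -0.036, with 3 higher and 16 lower past the threshold (2.7% in both directions). Over all tested genes 1.75% passed as higher and 0.83% as lower, 2.58% together. These medians are descriptions, and the differences between the sets were not tested.

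**Figure D2:**
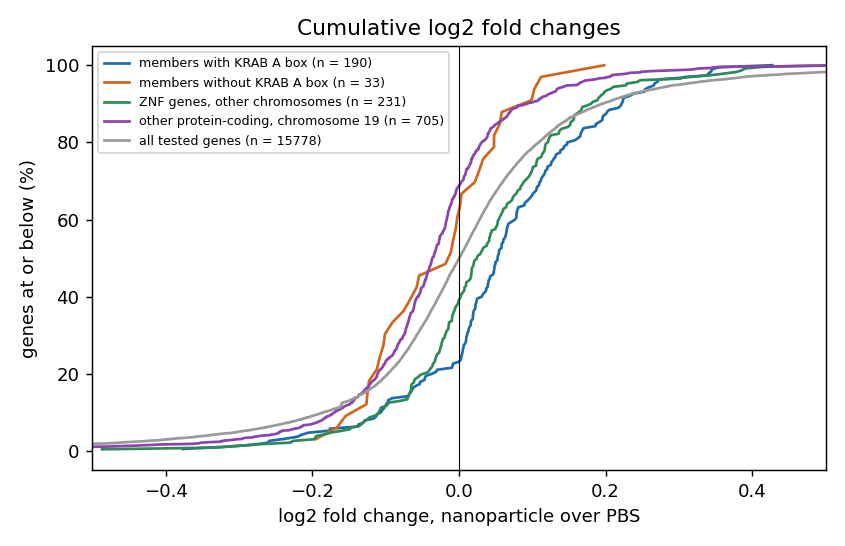
Cumulative share of genes (vertical axis, percent) at or below each log2 fold change (horizontal axis) for members with and without a KRAB A box, ZNF genes of other chromosomes, other protein-coding genes of chromosome 19 and all tested genes. The curve of KRAB members lies to the right of all tested genes around 0, and those of members without the box and of other chromosome 19 genes lie to the left.

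The members with the largest increases among those of at least 5 CPM with groups apart were all KRAB members, as were 190 of all 223 members. ZNF611 had 5.80 and 5.50 CPM in the PBS libraries and 7.20 and 7.15 CPM in the nanoparticle libraries, so its log2 fold change was 0.34 (SE 0.12, edgeR adjusted p = 0.126). Its level with nanoparticles was above that with PBS in every library, by more than the spread within either group, and it did not pass over all genes. ZNF550 had 8.09 and 6.67 CPM with PBS and 8.88 and 9.81 CPM with nanoparticles (log2 0.34, SE 0.11, edgeR adjusted p = 0.121). Exons of ZNF550 overlap those of ZNF549 on the opposite strand, and whether reads were assigned by strand is unknown here. Reads set aside as ambiguous between genes were given to none (4.78% to 4.81% of reads per library). The reads of such pairs may thus be missing from the counts or mixed. ZNF681 had 5.21 and 3.98 CPM with PBS and 5.88 and 5.75 CPM with nanoparticles (log2 0.34). The PBS libraries of ZNF681 differed from each other by more than the gap between the groups. ZNF844 (log2 0.27), ZNF699 (0.27), ZNF264 (0.27) and ZNF776 (0.27) completed this set with ZNF417.

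ZNF417 and ZNF587 are neighbouring duplicates, known as repressors of HERV-K proviruses, and both were among the higher members. Their coding sequences were 99.1% identical over 1725 aligned bases, and 2 of the 8 finger segments of ZNF417 were identical in ZNF587, of which the earliest in ZNF417 is printed above. ZNF417 had 5.35 and 5.46 CPM with PBS and 6.88 and 6.51 CPM with nanoparticles (log2 0.31, SE 0.12, edgeR adjusted p = 0.190). ZNF587 had 12.1 and 12.2 CPM with PBS and 14.3 and 14.03 CPM with nanoparticles (log2 0.22, SE 0.086, edgeR adjusted p = 0.197). In both genes the libraries of a group lay close together and the groups did not overlap. Only 59.9% of the 50-base windows of the ZNF417 transcript and 80.0% of those of ZNF587 occur in no other gene's principal transcript. Reads aligned to several places were not given to any gene, so reads from shared stretches may be missing from both counts. The counts of the pair may also not be independent, and neither point was tested.

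The smallest unadjusted p-values among the members belonged to ZNF529 and ZNF850, which were singled out after their values were seen. Both lie in the same cluster on the long arm, at chr19:36534774-36605276 and chr19:36714383-36772825. ZNF529 had 23.0 and 23.0 CPM with PBS and 25.5 and 28.1 CPM with nanoparticles (log2 0.22, SE 0.069, edgeR adjusted p = 0.0902). ZNF850, whose protein holds 29 finger motifs, had 33.3 and 30.6 CPM with PBS and 35.7 and 37.1 CPM with nanoparticles (log2 0.19, SE 0.059, edgeR adjusted p = 0.101). Exons of ZNF529 overlap ZNF382 and ZNF529-AS1 on the opposite strand.

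Among the lower members of at least 5 CPM with groups apart, ZNF253 had the largest decrease. Below that level, ZNF554 (3.91 and 3.85 CPM with PBS, 3.001 and 2.97 CPM with nanoparticles) had a log2 fold change of -0.38 (edgeR adjusted p = 0.217), noted after its values were seen. ZNF253 had 9.98 and 9.08 CPM with PBS and 7.28 and 7.96 CPM with nanoparticles (log2 -0.32, SE 0.11, edgeR adjusted p = 0.115). ZNF556 had 13.0 and 11.1 CPM with PBS and 10.3 and 9.81 CPM with nanoparticles (log2 -0.26), and ZNF85 had 14.7 and 16.02 CPM with PBS and 13.5 and 12.5 CPM with nanoparticles (log2 -0.24). ZNF253 and ZNF85 lie in the cluster near the centromere, in which 25 of 30 members were above 0. ZNF576 (log2 -0.17), ZNF606 (-0.13), ZNF607 (-0.13), ZNF414 (-0.13) and ZNF57 (-0.11) completed the 8. ZNF576 and ZNF414 carry no KRAB A box.

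**Figure D3:**
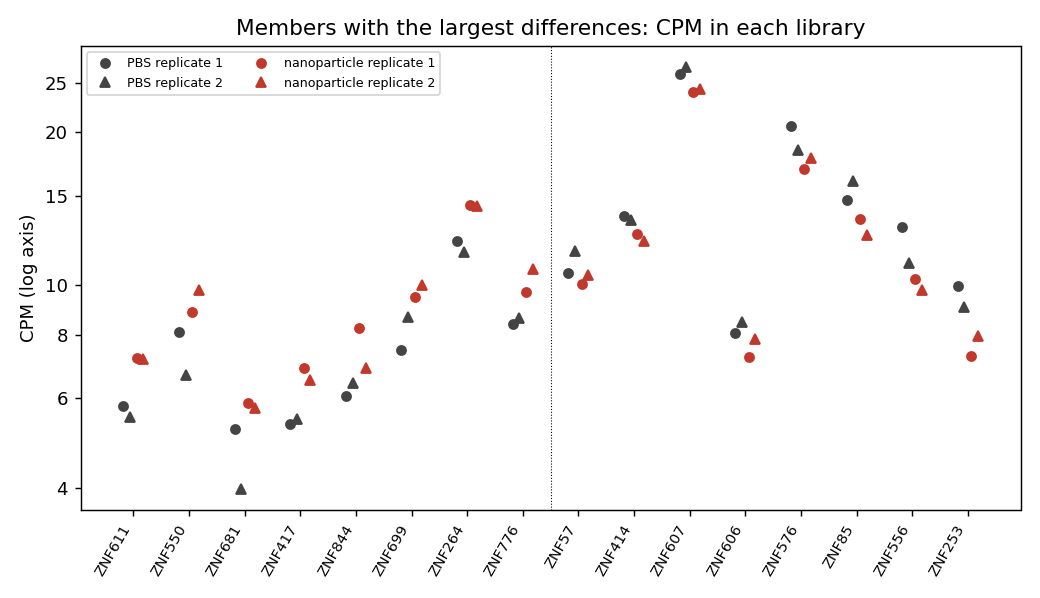
CPM (vertical log axis) in each of the 4 libraries for the 8 largest increases (left of the dotted line) and the 8 largest decreases (right) among members of at least 5 CPM whose groups do not overlap. Dark grey marks are PBS and red marks nanoparticle libraries, and the separation shown here was a condition of the choice.

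None of the 6 most abundant members per kilobase of transcript passed the threshold. ZNF146, a short KRAB-less protein made almost entirely of fingers, stood first at 58.4 CPM per kilobase. It had 224 and 218 CPM with PBS and 219 and 223 CPM with nanoparticles, so that the groups overlapped (log2 -0.0020, 95% interval -0.070 to 0.065). ZNF428 followed at 40.9 CPM per kilobase (log2 -0.011), then ZNF787 at 26.5 (-0.11), ZNF581 at 23.7 (-0.11), ZNF875 at 22.3 (0.079) and ZNF274 at 18.7 (0.010). Of these 6, ZNF875 and ZNF274 have a KRAB A box. The groups were apart for ZNF787 and ZNF581, both lower, and for ZNF875, which was higher. They overlapped for ZNF428 and ZNF274. Over all tested genes 23.2% were apart as lower and 23.7% as higher. At the median, members had 2.76 CPM per kilobase.

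Of the members chosen for a well-studied role after the results were known, ZNF417 and ZNF587, described above, had the largest differences, and none passed. ZNF274, which recruits SETDB1 to the 3′ ends of zinc finger genes, had 46.8 and 48.4 CPM with PBS and 46.6 and 49.2 CPM with nanoparticles. ZNF91, a repressor of SVA and L1 retroelements with 32 finger motifs, had 11.6 and 10.6 CPM with PBS and 9.96 and 12.3 CPM with nanoparticles, and its groups overlapped (log2 0.0063, 95% interval -0.21 to 0.23). ZNF473, which takes part in histone pre-mRNA processing, had a log2 fold change of 0.033 and ZNF382 of 0.11, both with overlapping groups. ZNF331 had 15.4 and 15.9 CPM with PBS and 16.04 and 18.4 CPM with nanoparticles, so that its groups were apart (log2 0.14, edgeR adjusted p = 0.436). ZNF350, a partner of BRCA1, was listed at 0 counts in every library. For counting error only, a count of 0 leaves room for up to 3 counts in a library.

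Along the chromosome, gaps of more than 1 Mb divided the members into 15 groups, of which 7 held at least 13 members. Their median log2 fold changes ran from 0.016 for the 56 members between ZNF628 and ZNF446 at the telomere of the long arm (chr19:55476332-58481230) to 0.072 for the 13 members between ZNF557 and ZNF846 (chr19:7069444-9793180). The cluster near the centromere (chr19:19668796-24129961, 30 members) had a median of 0.048, and the 37 members between ZNF175 and ZNF331 (chr19:51571298-53580269) had 0.053. The 5 members between ZNF554 and ZNF77 near the telomere of the short arm had the lowest median of any group with several members, -0.11, with 3 lower and 1 higher member whose groups were apart (over all tested genes, 23.2% were apart as lower and 23.7% as higher).

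A run of 9 neighbours without a KRAB A box opens the last group on the long arm, and most of it was below 0. From ZNF628 to ZNF444 these were ZNF628 (log2 -0.075), ZNF579 (-0.066), ZNF524 (0.059), ZNF865 (-0.10), ZNF784 (-0.20), ZNF580 (-0.091), ZNF581 (-0.11), ZNF787 (-0.11) and ZNF444 (0.0018). ZNF787 had 51.5 and 54.3 CPM with PBS and 49.8 and 48.4 CPM with nanoparticles (edgeR adjusted p = 0.269). Their GC content was between 59.6% (ZNF581) and 71.1% (ZNF865), well above the median member. After a trend on GC content was taken out of each library, ZNF784 was at a log2 fold change of -0.14, ZNF581 at -0.089, ZNF580 at -0.056, ZNF787 at -0.0024 and ZNF579 at -0.0018, while ZNF865 was at 0.0095, ZNF628 at 0.031, ZNF444 at 0.090 and ZNF524 at 0.12. ZNF865 and ZNF628 thus changed sign, and ZNF784, ZNF581 and ZNF580 were below 0 in every alternative (15 for ZNF581 and ZNF580, 14 for ZNF784, which the limit of 50 counts left out). The run was noticed in the data, and no member of it passed.

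Across the members, as across all genes, fold change was lower at higher GC content and higher in longer transcripts, more weakly so among KRAB members alone. Spearman's rank correlation of the log2 fold change was -0.26 with GC content and 0.26 with length over the 223 members, -0.12 and 0.18 within the 190 KRAB members, and -0.28 and 0.34 over 13708 genes above 1 CPM. Genes share libraries and are not independent, so these are descriptions. Members below 40% GC had a median log2 fold change of 0.053 (n = 62), where all tested genes below 40% GC had 0.055. Between 40% and 45% GC the medians were 0.064 for 95 members and 0.020 for all such genes, and from 45% GC upward 0.0076 for 66 members and -0.019 for all such genes. At 45% GC or more, the 44 KRAB members had a median of 0.021 with 31 above 0, and the 22 members without the box had -0.083 with 6 above 0. The former had a median GC content of 47.1% and the latter of 64.9%. The 11 members without the box below 45% GC had a median of 0.028. After a trend on transcript length was taken out of each library the median of the members was 0.037, after a trend on GC content 0.021, and after both 0.025. In each of these fits 0 members passed. Over all genes, 210, 389 and 263 passed in the same order, against 407 in the reported fit.

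**Figure D4:**
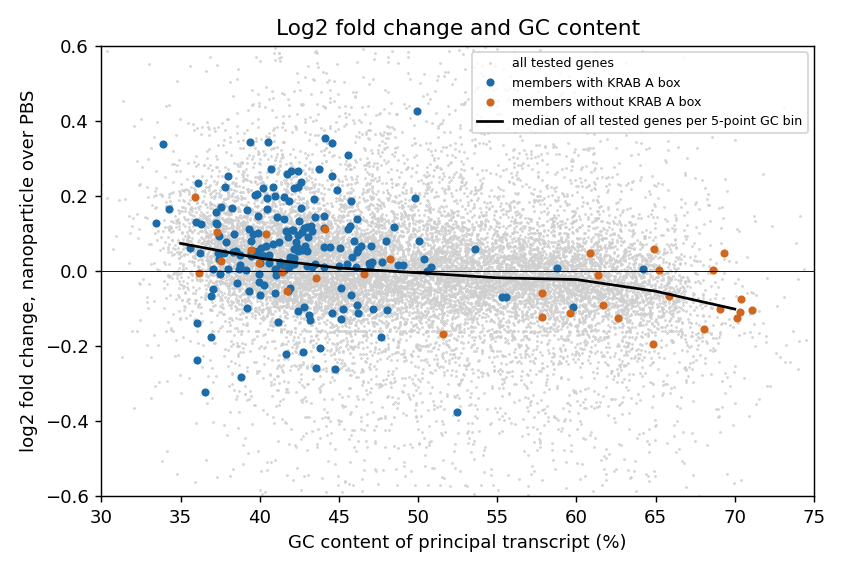
Log2 fold change (vertical axis) against GC content of the principal transcript (horizontal axis, percent) for members with (blue) and without (orange) a KRAB A box over all tested genes (light grey). The black line, the median of all tested genes per 5-point bin, goes from above 0 at low GC to below 0 at high GC, and the members without the box at high GC lie mostly below 0.

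For the genes through which KRAB proteins act, the lists were too short for their counts to be read against the 2.58% of all tested genes that passed. Of 18 tested genes of the KRAB corepressor complex 0 passed, with a median log2 fold change of -0.020. TRIM28, given here for its role, had 679 and 705 CPM with PBS and 693 and 664 CPM with nanoparticles, so that the groups overlapped (log2 -0.028, SE 0.027). SETDB1 had 53.3 and 57.8 CPM with PBS and 56.8 and 57.7 CPM with nanoparticles, and its groups overlapped too (log2 0.044, SE 0.049). The smallest p-values in the list belonged to the HP1 gene CBX3 (log2 -0.060) and the NuRD complex genes CHD4 (-0.078), CHD3 (0.050) and RBBP7 (-0.044). Of 18 tested genes of H3K9 methylation and retroelement silencing 0 passed, with a median of 0.031 and 14 above 0. ATRX, a chromatin remodeller (log2 0.20, edgeR adjusted p = 0.0714), and KDM4A, an H3K9 demethylase (log2 0.17, edgeR adjusted p = 0.115), had the smallest p-values, followed by MPHOSPH8 (log2 0.13) and TASOR (log2 0.082) of the HUSH complex. Of 14 tested chromosome 19 C2H2 genes under other symbols 0 passed, with a median of -0.027, and the smallest p-values were those of the transcription factors KLF2 (log2 -0.15), ZBTB7A (-0.11) and KLF16 (-0.090) and of the imprinted gene PEG3 (0.23).

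Promoters of the members were rich in the CG dinucleotide. Of the 223 members 200 had a promoter sequence in the RefSeq table (GRCh38.p14, 250 bases before to 50 after the start), with a median of 20 CG dinucleotides in 300 bases against 14 over all 35116 promoters. At least 15 were found in 75% of these members' promoters and in 48.9% of all. The members were chosen as expressed protein-coding genes, and repeated promoter entries of a member were dropped. No such choice was made for the full set, and its part in the difference was not tested.

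Of the 24 members below 1 CPM, 6 were tested and none passed, and 8 had no count in any library. The pair just below the limit was ZNF540 with 26, 14, 18 and 19 counts and ZNF132 with 20, 16, 19 and 15 counts, in the order PBS replicates 1 and 2 and nanoparticle replicates 1 and 2. Just above it, ZNF491 had 0.944, 1.21, 1.16 and 0.965 CPM and ZNF221 had 1.03, 0.940, 1.12 and 1.41 CPM in the same order. Of the members with no count, ZNF177 has 14.2% and ZNF223 38.1% of its 50-base windows to itself. The others with no count have more, from 82.6% in ZNF536 to 99.6% in ZNF350. Whether shared sequence lowered any of these counts was not tested. Among the 223 members used, 180 had at least 90% of such windows to themselves, with a median log2 fold change of 0.047, and the 43 others had 0.042.

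**Figure D5:**
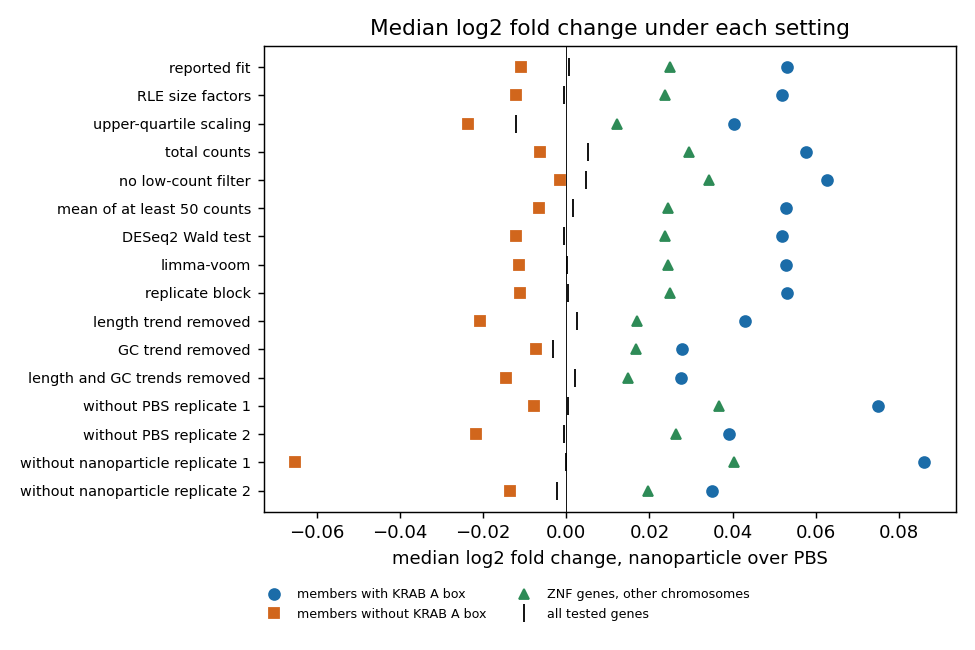
Median log2 fold change (horizontal axis) under the reported fit and 15 alternatives (vertical axis) for members with a KRAB A box (blue circles), members without it (orange squares), ZNF genes of other chromosomes (green triangles) and all tested genes (black bars). The medians of the KRAB members and of the ZNF genes of other chromosomes are both above that of all tested genes in every setting shown.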

How the data were processed

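Polyadenylated RNA of 4 libraries was sequenced. Each deposited file holds raw counts, as whole numbers, for the genes of 1 library. Per the submitters' processing notes the authors worked on GRCh38 and listed HTSeq 2.0.2, STAR 2.7.6a, cutadapt 3.5, bcl2fastq 2.20 and Picard. A stranded kit was used, per the labels' protocols. No annotation release or strand setting is stated in the material used. Rows of reads given to no gene (13.7% to 14.8% of reads) were left out. Symbols were looked up by Ensembl identifier, and types, positions, lengths and GC content from GENCODE 29 (GRCh38).

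Genes were filtered with filterByExpr, scaled by TMM and tested with edgeR 4.0.16 (R 4.3.3, quasi-likelihood, two-sided, Benjamini-Hochberg adjustment over 15778 genes, threshold 0.05). CPM values are on TMM-scaled library sizes, except for the 1 CPM limit, which used total counts. Errors are standard errors from the F statistic, and intervals are at the 95% level. The procedure was tested on simulated data. The members and lists were chosen with earlier results of these data known. Genes named were the 8 largest increases and 8 largest decreases with groups apart and at least 5 CPM, the 6 highest per kilobase, up to 4 with the smallest p-values per list, the members nearest the 1 CPM limit, and those marked as chosen for their role or after their values were seen. KRAB A boxes were found with a profile (pyhmmer, 129 seed windows of 40 residues, E-value limit 0.0001). Alternatives used DESeq2 1.42.0, limma 3.58.1 and robust splines with 4 degrees of freedom (MASS 7.3.60.0.1). Same-numbered replicates were checked for pairing: their deviations had a correlation of 0.036.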

Additional observations from a re-analysis of the deposited data

How the results depend on the processing

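Under 14 of 15 alternatives of scaling, filter, tool, trend removal or left-out library, 0 of the members passed. With the replicate block 3 passed, all higher: ZNF529 (log2 0.22, edgeR adjusted p = 0.0328), ZNF850 (0.19, adjusted p = 0.0445) and ZNF550 (0.34, adjusted p = 0.0481). The labels give the libraries only a shared number, and the deviations of same-numbered replicates did not go together (correlation 0.036 over 11107 genes). The block raised the calls over all genes from 407 to 759. Without a low-count filter, without PBS replicate 1 and without PBS replicate 2 no gene at all passed, so a count of 0 members says little there. The median log2 fold change of the members was above 0 in every alternative. It was 0.021 with the GC trend removed, which is lower than reported by more than the spread between replicates (SD 0.025), and between 0.027 and 0.068 when 1 library was left out. Members above 0 numbered between 132 and 166, and members with groups apart numbered 57 higher and 30 lower with upper-quartile scaling, under which 20.4% of all tested genes were apart as higher and 27.1% as lower. ZNF146, ZNF274, ZNF428, ZNF787 and ZNF91 changed sign in 4, 3, 5, 1 and 7 of the 15 alternatives. The other members named for their difference, level or role kept theirs, but the sign of ZNF554 in the alternatives is not reported. In the run from ZNF628 to ZNF444, ZNF628, ZNF579, ZNF524, ZNF865 and ZNF444 changed sign in 2, 2, 1, 1 and 4 alternatives, as did TRIM28, SETDB1 and CHD3 in 3, 1 and 1. With length and GC trends removed 1 corepressor gene passed (HDAC2, log2 -0.14), and 1 silencing gene (ATRX, log2 0.20) passed with the replicate block and with a mean of at least 50 counts. Within the reported fit, the median was 0.043 for members of at least 0.5 CPM, 0.047 for those of at least 5 CPM, 0.043 for those without opposite-strand overlap and 0.047 for those with at least 90% unique windows, a choice made after seeing the data. These are subsets of 1 fit, so their counts of 0 test nothing further. Depth limits the low members: the standard error of the log2 fold change was between 0.032 and 0.28, with a median of 0.10.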
